A study of Mus musculus with 18 samples.

Results

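Cerebellum of mice without the long noncoding RNA Cyrano was compared with wild-type cerebellum by small-RNA sequencing. The comparison rests on 6 of the 18 libraries of the study, 3 labelled CyrKO and 3 labelled WT, chosen by their genotype and tissue labels, and on every miRNA listed for them. All 6 came from male C57BL/6J mice aged 1 month, each group holds 3 biological replicates, and the labels describe the mutation no further than Cyrano-/- (CyrKO). The other libraries, used only where a result is set beside them, are WT and CyrKO hippocampus and cerebellum of Cdr1as671 mice, which carry an 18-nt deletion where miR-671 pairs with the circular RNA Cdr1as, and of double mutants (CyrKOCdr1as671), again 3 each. These mice too were aged 1 month. Of the 1841 miRNAs listed, 668 had enough reads to be tested.

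miRNAs are short RNAs that sit in Argonaute proteins and guide them to messages through their seed, bases 2 to 8 of the strand. Each hairpin precursor gives a 5p and a 3p strand, of which usually one, the guide, is retained in Argonaute and the other, the passenger, is lost. Most sites that pair only with the seed repress the message, whereas a site that pairs with the seed and again extensively with the 3′ end of the miRNA can lead to decay of the miRNA itself, which is called target-directed miRNA degradation. Cyrano, a conserved noncoding RNA abundant in brain, carries such a site for miR-7, a miRNA of neurons and endocrine cells, and the comparison asks which miRNAs depend on it.

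The results turn on 6 guide or passenger strands, printed here with the seed in capitals so that those sharing a seed can be seen. The mature sequences are those of RefSeq (GRCm38.p6), which held 1573 of the 1841 listed names and all 6 of these.
miR-7a-5p: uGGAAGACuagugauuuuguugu
miR-7b-5p: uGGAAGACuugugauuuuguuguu
miR-671-5p: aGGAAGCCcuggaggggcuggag
miR-379-3p: uAUGUAACaugguccacuaacu
miR-411-3p: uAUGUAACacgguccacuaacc
miR-409-3p: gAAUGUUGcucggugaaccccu
miR-7a-5p and miR-7b-5p share the seed GGAAGAC and differ over their first 23 bases at 1 position, A10U, counted from the 5′ end with miR-7a-5p first. miR-379-3p and miR-411-3p share the seed AUGUAAC and differ at U10C and U22C, with miR-379-3p first. How reads were divided between such near-identical strands is not given in the sources used here.

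Cyrano's gene, annotated as 1700020I14Rik, lies on the plus strand of mouse chromosome 2. Its GENCODE (GRCm38) transcript has 8300 nt, and the best paired site for miR-7 is in exon 3 of 3, at chr2:119602137-119602161 for miR-7a-5p and from base 119602136 for miR-7b-5p. The sites are shown 5′ to 3′ because their pairing sets these miRNAs apart, with the bases that pair with the miRNA in capitals and the unpaired loop in lower case.
Cyrano site, paired to miR-7a-5p: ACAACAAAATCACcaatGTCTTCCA
Cyrano site, paired to miR-7b-5p: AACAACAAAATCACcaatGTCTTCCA
The site pairs with 21 of the 23 bases of miR-7a-5p and 22 of the 24 bases of miR-7b-5p, without a break from the 5′ end to base 8 and again from base 11 to the 3′ end, leaving 2 miRNA bases unpaired opposite 4 target bases. A seed match alone was common, since 255 of the 566 tested miRNAs with a RefSeq sequence (45.1%) had one in Cyrano. Counted over the seed and 1 further run of pairs beyond a loop of up to 4 extra or missing bases, miR-7b-5p had 21 paired bases and miR-7a-5p had 20, ranks 1 and 2, and the best of any other miRNA was 14. Of the other 4 strands printed above, miR-409-3p had 3 seed matches and at most 11 paired bases, miR-671-5p had 1 seed match and 10 paired bases, and miR-379-3p and miR-411-3p had 0 seed matches. The miR-7 seed match, GTCTTCC read on the transcript strand, occurred 2 times in Cyrano and in 19 of the 44 annotated noncoding transcripts at least as long, searched over their first 8300 bases (43.2%). No step took Cyrano itself out of that count.

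The 6 libraries held 10047721 to 15305829 reads assigned to miRNAs, with 1073 to 1126 miRNAs detected in each and RNA integrity numbers of 8.9 to 9.1. Levels are given as CPM, a miRNA's count scaled to its library's total of miRNA reads. miR-124-3p, a miRNA of neurons, headed the list in every library with 18.6% to 22.9% of reads, and log2 levels within a group correlated across 408 miRNAs at r = 0.990 to 0.996. The tissue label was set beside miRNAs listed as differing between brain regions. Those lists were chosen with earlier results of these data known, so they give no independent check. All 7 of those listed as richer in cerebellum, such as miR-206-3p with 901 CPM in WT cerebellum and 5.77 CPM in WT hippocampus, lay above the WT hippocampus mean in all 6 libraries. Of 8 listed as richer in hippocampus 7 lay below it, and miR-344-3p, at 833 CPM against 492 CPM, went against its list. Cyrano itself is not measured in small-RNA libraries, so the genotype was not checked on the deleted RNA.

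Without Cyrano both miR-7 guides went from moderate levels to places among the most abundant miRNAs of the cerebellum. miR-7a-5p had 438, 542 and 507 CPM in the 3 WT libraries and 19644, 20987 and 19447 CPM in the 3 CyrKO libraries. miR-7b-5p had 145, 193 and 181 CPM in WT and 7473, 8473 and 8460 CPM in CyrKO. The groups were far apart for both, and the spread within a group was small beside the gap between them. miR-7a-5p moved from rank 117 to rank 13 of the 1841 miRNAs and miR-7b-5p from rank 184 to rank 24. The log2 change was 5.34 (SE 0.11) for miR-7a-5p, a 40.5-fold rise with a 95% interval of 34.2 to 48.0. For miR-7b-5p it was 5.56 (SE 0.13), a 47.2-fold rise with an interval of 38.5 to 57.7. edgeR's quasi-likelihood test with Benjamini-Hochberg adjustment gave adjusted p = 2.52e-11 and 5.67e-11. At the adjusted threshold of 0.05 this test called 0.898% of all tested miRNAs higher, 6 of 668, and none lower (0 of 668 in edgeR and 0 in DESeq2, with 8 lower at an unadjusted p under 0.05), so the guides and the other 4 strands printed above are the whole of the calls. A bulk sample cannot tell fewer cells of a type from less RNA per cell.

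Together the miR-7 guides took a visible part of the miRNA pool. Their share of miRNA reads was 0.0583%, 0.0735% and 0.0689% in the WT libraries and 2.71%, 2.95% and 2.79% in the CyrKO libraries. The mean gain of both guides was 27493 CPM, against 429 CPM for the other 4 called strands together. Because CPM is a share, that gain lowers the CPM of all other miRNAs by 0.04 on the log2 scale. The fitted changes were scaled by TMM, under which the median over all tested miRNAs was −0.014. TMM moved that median little, since it was −0.017 with library totals alone. With DESeq2 size factors it was 0.005. The ratio of miR-7a-5p to miR-7b-5p was 3.03, 2.80 and 2.80 in WT and 2.63, 2.48 and 2.30 in CyrKO. Every CyrKO ratio was lower, although the exact two-sided permutation test can give no p below its value here (p = 0.1, 3 against 3).

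The passenger strands of the 3 miR-7 hairpins showed nothing of this size. Mir7-1 (chromosome 13, 58392779 to 58392886, GRCm38) lies in an intron of Hnrnpk, and Mir7-2 (chromosome 7, 78888277 to 78888373) and Mir7b (chromosome 17, 56242988 to 56243098) have no annotated host gene on their strand. miR-7a-1-3p, the most abundant passenger, had 351, 369 and 376 CPM in WT and 420, 324 and 347 CPM in CyrKO, so that the groups overlapped. Its log2 change of −0.0045 (SE 0.10) had a 95% interval of −0.23 to 0.23 and a sign that changed with the scaling. miR-7a-2-3p was at 4.08, 4.59 and 4.88 CPM in WT and 5.40, 4.77 and 3.66 CPM in CyrKO, a log2 change of 0.04 (SE 0.20) that turned negative in a fit with an erythroid covariate. miR-7b-3p was at 14.3, 11.4 and 26.2 CPM in WT and 17.4, 14.3 and 16.9 CPM in CyrKO. Its log2 change was −0.09 (SE 0.30) over all libraries and 0.34 without WT library 3. The last 2 strands rested on 41 to 73 and 139 to 263 reads per library, which leaves 95% intervals of −0.41 to 0.49 for miR-7a-2-3p and −0.80 to 0.62 for miR-7b-3p.

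miR-671-5p, the strand that directs slicing of Cdr1as, also rose. It had 111, 129 and 127 CPM in WT and 242, 217 and 217 CPM in CyrKO. No CyrKO library came near the WT range. The log2 change was 0.89 (SE 0.10), a 1.85-fold rise (95% interval 1.58 to 2.16, adjusted p = 0.000376 by edgeR's quasi-likelihood test). The other strand of the hairpin, miR-671-3p, had 21.0, 20.1 and 22.6 CPM in WT and 20.2, 18.8 and 18.8 CPM in CyrKO, a log2 change of −0.14 (SE 0.12, adjusted p = 0.999). Mir671 lies in an exon of Chpf2 on chromosome 5 at 24592114 to 24592211.

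**Figure D1:**
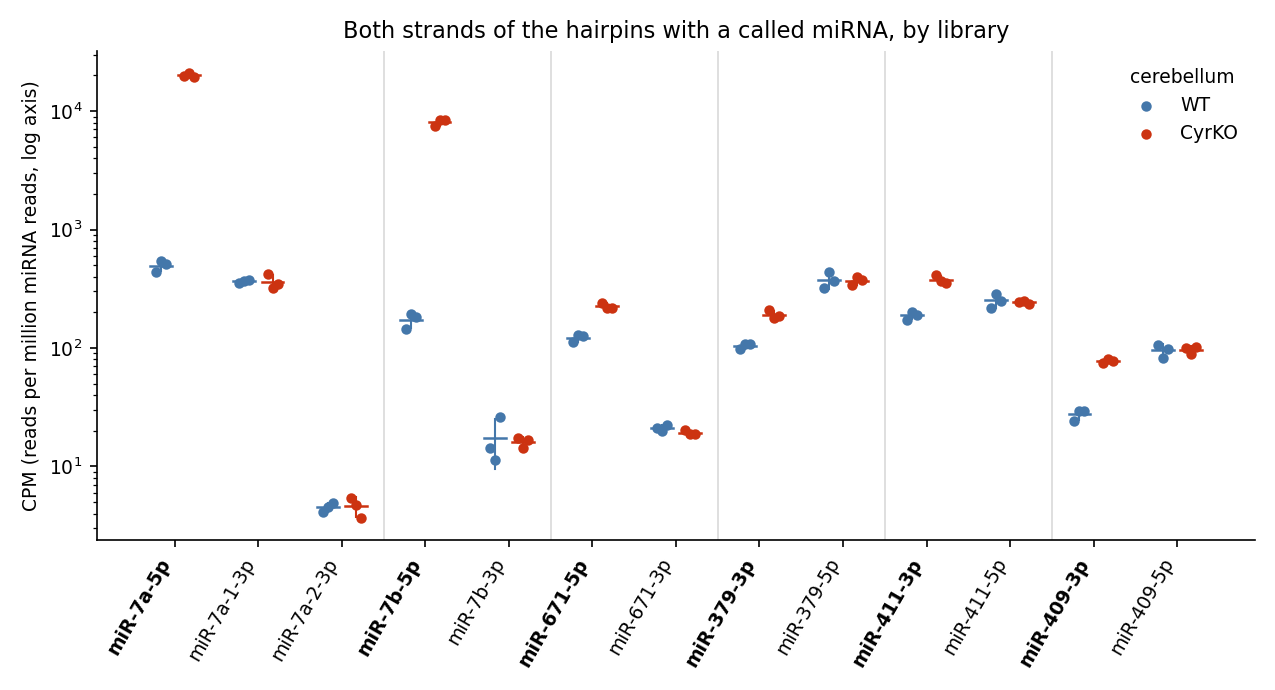
CPM (log axis) of both strands of each hairpin with a called miRNA, with 1 point per cerebellum library, WT in blue and CyrKO in red, and bars for the mean and SD of 3 libraries. Called strands are in bold. The CyrKO libraries sit above the WT libraries for the 6 called strands, from 75.1 against at most 29.3 CPM for miR-409-3p to 19447 against at most 542 CPM for miR-7a-5p, and overlap or lie close for the other strands.

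The remaining 3 called strands are 3p strands of hairpins in the miR-379/410 cluster, a long run of miRNA genes in the imprinted Dlk1-Dio3 region that is active in neurons. miR-409-3p had 24, 29.2 and 29.3 CPM in WT and 75.1, 80.8 and 77.7 CPM in CyrKO. miR-411-3p had 174, 200 and 192 CPM in WT and 411, 366 and 355 CPM in CyrKO. miR-379-3p had 98.1, 107 and 108 CPM in WT and 209, 179 and 186 CPM in CyrKO. In each case the lowest CyrKO library was above the highest WT library. miR-409-3p changed by 1.51 (SE 0.12) on the log2 scale, miR-411-3p by 1.01 (SE 0.10) and miR-379-3p by 0.88 (SE 0.10), which are rises of 2.84-fold (95% interval 2.38 to 3.40), 2.01-fold (1.73 to 2.33) and 1.84-fold (1.57 to 2.14). The adjusted p in edgeR's quasi-likelihood test was 1.24e-05, 9.60e-05 and 0.000376.

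The 5p strands of the same 3 hairpins did not follow. miR-409-5p had 105, 82.6 and 98.8 CPM in WT and 99.6, 88.5 and 102 CPM in CyrKO, a log2 change of 0.02 (SE 0.12). miR-411-5p had 219, 285 and 252 CPM in WT and 243, 250 and 235 CPM in CyrKO, a log2 change of −0.05 (SE 0.11). miR-379-5p had 321, 438 and 367 CPM in WT and 340, 399 and 372 CPM in CyrKO, a log2 change of −0.01 (SE 0.12). All 3 overlapped between the groups, and their signs changed under other settings, miR-379-5p with the scaling. In WT the 3p strand of each of these hairpins was the less abundant of the pair, and miR-411-3p passed its partner in CyrKO.

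The rest of the cluster moved little. Of its 73 listed strands 59 were tested, and 3 of 59 rose and 0 fell by edgeR, with a median log2 change of 0.03, beside 0.898% called and a median of −0.01 over all tested. The 56 tested strands that were not called had a median of 0.02 and ranged from −0.72 to 0.33. Among the neighbours with the highest levels, miR-300-3p averaged 1178 ± 48.1 CPM in WT and 1150 ± 107 CPM in CyrKO (SD, n = 3 each). Its log2 change was −0.03 (SE 0.10). miR-495-3p was at 0.08 (SE 0.10) and miR-381-3p at −0.10 (SE 0.09) on the same scale. miR-666-3p had the lowest p among the uncalled members. It had 193, 205 and 197 CPM in WT and 155, 156 and 154 CPM in CyrKO, a log2 change of −0.35 (SE 0.09) in groups that did not overlap (adjusted p = 0.200).

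The called strands do not all sit together in the cluster. On the 38.9 kb between the first and the last mapped strand, Mir379 (chromosome 12, 109709060 to 109709125) and Mir411 (109710175 to 109710256) are neighbours, whereas Mir409 (109743158 to 109743236, in an intron of Mirg) lies near the far end. The map holds 55 strands of 34 hairpins. Of its uncalled strands 26 averaged at least 100 CPM, and their log2 changes lay between −0.35 and 0.22.

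**Figure D2:**
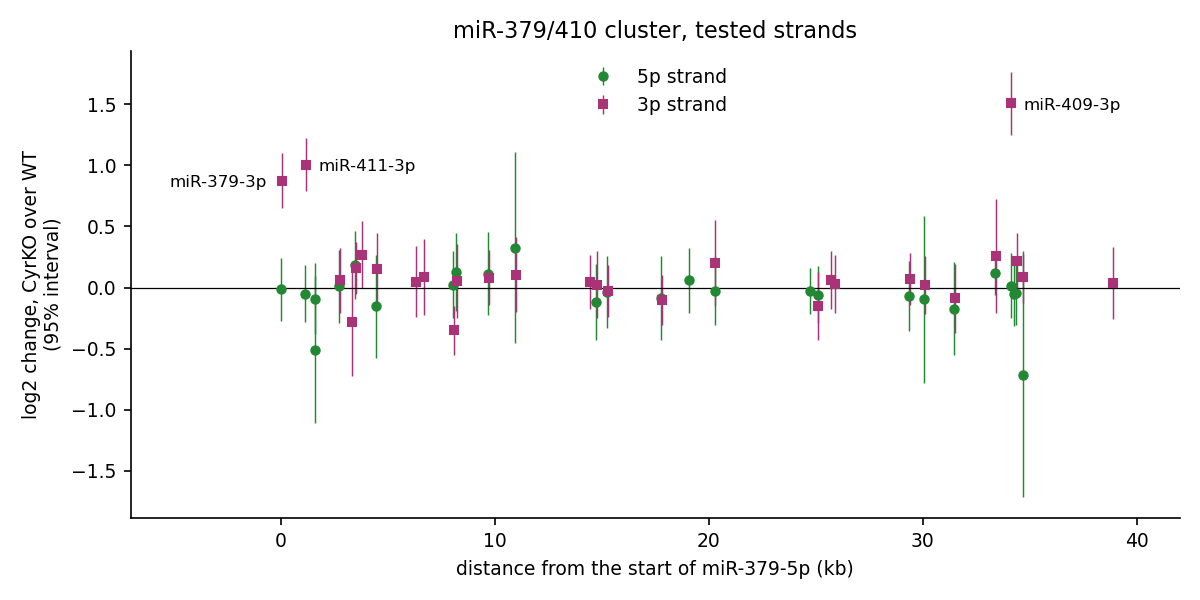
Log2 change, CyrKO over WT cerebellum, of the tested strands of the miR-379/410 cluster against the distance from the start of miR-379-5p in kb. Circles are 5p strands, squares are 3p strands and bars are 95% intervals. miR-379-3p, miR-411-3p and miR-409-3p stand at 0.88, 1.01 and 1.51, and the uncalled strands lie between −0.72 and 0.33.

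Setting the strands of a hairpin against each other needs no scaling between libraries. For 226 hairpins with both strands tested, the log2 ratio of 5p to 3p reads was compared by limma, which called 7 (3.1%), 4 with a higher (1.77%) and 3 with a lower ratio in CyrKO (1.33%). The groups of libraries did not overlap for 25 of the 226 (11.1%). Between miR-7a-5p and miR-7a-1-3p it was 0.32, 0.56 and 0.43 on the log2 scale in WT and 5.55, 6.02 and 5.81 in CyrKO, and guide and passenger of Mir7-1 were thus nearly level in WT. This ratio changed by 5.36 (SE 0.14), and that between the miR-7b strands by 5.57 (SE 0.31). Against miR-7a-2-3p the change was 5.33 (SE 0.16), but both miR-7a ratios use the same guide reads, since Mir7-1 and Mir7-2 give the same 5p strand.

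Between the miR-671 strands the log2 ratio went from 2.40, 2.68 and 2.49 in WT to 3.58, 3.53 and 3.53 in CyrKO, a change of 1.02 (SE 0.14, adjusted p = 0.00295 by limma). The ratios that fell were those of miR-411, by 1.05 (SE 0.12), miR-409, by 1.49 (SE 0.19), and miR-379, by 0.88 (SE 0.16). miR-379 was the weakest call (adjusted p = 0.0183) and was lost without WT library 2 (0.0775), WT library 3 (0.0542) or CyrKO library 3 (0.0749), each an adjusted p from limma. Among the 219 hairpins that were not called the median absolute change was 0.10.

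**Figure D3:**
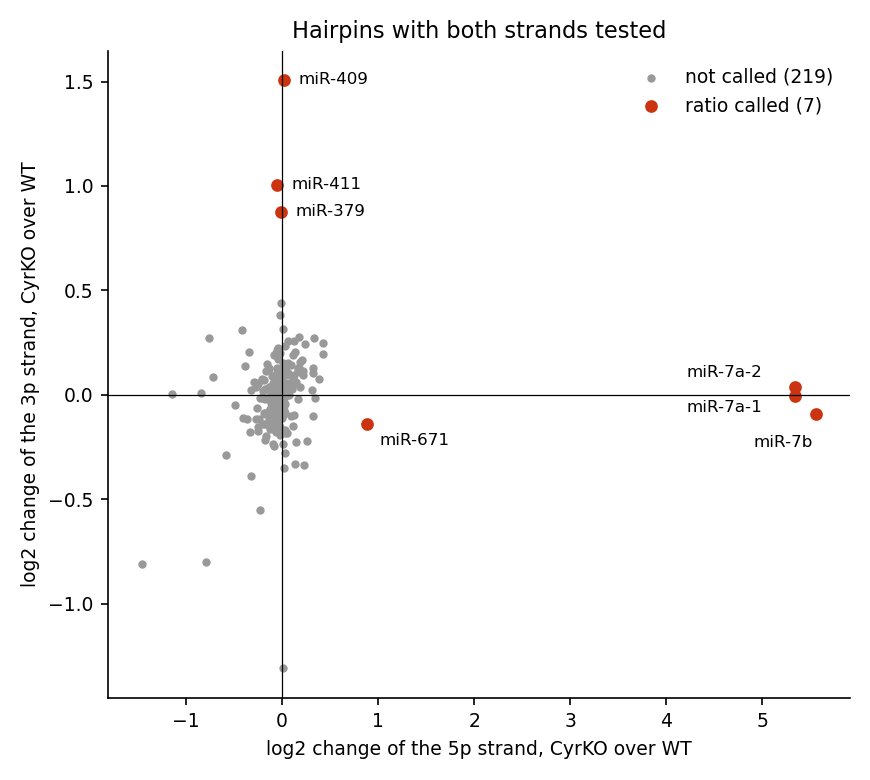
Log2 change of the 3p strand against that of the 5p strand, CyrKO over WT cerebellum, with 1 point per hairpin with both strands tested. The 7 hairpins whose strand ratio was called, in red, lie along an axis, with 1 strand near 0 and the other at 0.88 or more, while the 219 others, in grey, gather around the origin.

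Counts summed over strands with the same seed gave 4 called families of 490 (0.816%), all higher in CyrKO. The family GGAAGAC, which holds miR-7a-5p and miR-7b-5p, went from 583, 735 and 689 CPM in WT to 27118, 29460 and 27908 CPM in CyrKO, from rank 68 to rank 7 among families. Its log2 change was 5.39 (SE 0.11). The family AUGUAAC, miR-379-3p with miR-411-3p, went from 272, 307 and 299 CPM to 619, 545 and 541 CPM, a log2 change of 0.95 (SE 0.09). For this pair and for miR-7 the sum does not depend on how reads were split between strands with the same seed. The other families, AAUGUUG at 1.5 and GGAAGCC at 0.87, hold 1 strand each, miR-409-3p and miR-671-5p.

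Outside the 6 called strands no miRNA passed the test in the other 662. Those with the lowest p among lower values were miR-374c-5p and miR-34a-5p. miR-374c-5p had 5.77, 5.65 and 3.78 CPM in WT and 3.14, 2.22 and 1.52 CPM in CyrKO, a log2 change of −1.15 (SE 0.28, adjusted p = 0.169 by edgeR). It was called lower in edgeR with no filter on low counts (adjusted p = 0.00129), with a replicate block (adjusted p = 0.0149) and with 12 cerebellum libraries in 1 fit (0.0490) but not in DESeq2. miR-34a-5p, a target of the tumour suppressor p53, had 2831, 2514 and 2593 CPM in WT and 2022, 2118 and 2139 CPM in CyrKO. Its log2 change was −0.34 (SE 0.09, adjusted p = 0.200), with groups that did not overlap. Lower still in rank were miR-31-5p at −0.36, miR-3110-5p at −0.92, miR-298-5p at −0.30, miR-328-5p at −0.84, miR-7666-3p at −0.39, let-7i-3p at −0.20 and miR-138-5p at −0.18.

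On the higher side miR-431-5p, from the cluster next to miR-379/410, had 73.6, 85.8 and 85.3 CPM in WT and 102, 103 and 104 CPM in CyrKO, a log2 change of 0.34 (SE 0.10, adjusted p = 0.474 by edgeR). miR-466i-3p followed at 0.38 (SE 0.13, adjusted p = 0.597). The next in order of p were miR-92b-5p at 0.38, miR-369-3p at 0.22, miR-758-3p at 0.27, miR-5132-3p at 0.77, miR-212-3p at 0.23, miR-6952-3p at 0.64, miR-132-3p at 0.19 and miR-1955-5p at 0.51. In all, 16 of 668 miRNAs (2.4%) had an unadjusted p under 0.05, the called ones included. The groups of libraries did not overlap for 21 higher (3.14%) and 33 lower miRNAs (4.94%).

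The width of the intervals says how much change could have been missed. The 95% interval of the fold change lay within 1.5-fold either way for 429 of the 668 miRNAs (64.2%) and within 2-fold for 584. For miRNAs under 10 CPM the share within 1.5-fold was 23.1%, and in the 3 classes above, split at 100 and 1000 CPM, it was 89.0%, 90.5% and 93.8%. The 10 most abundant miRNAs had log2 changes from −0.11, for miR-124-3p, to 0.01, for let-7f-5p.

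**Figure D4:**
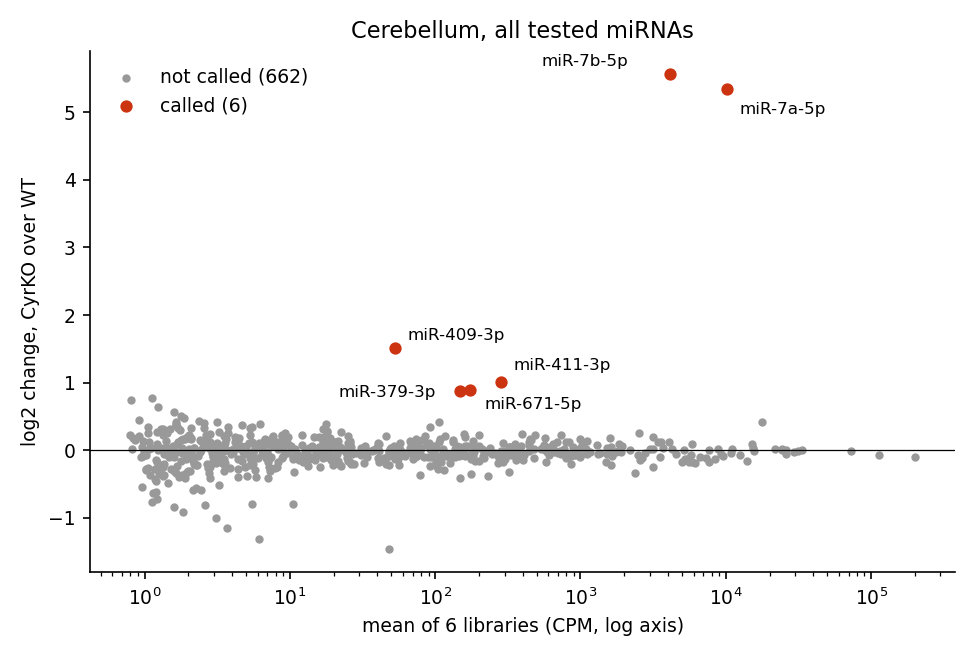
Log2 change, CyrKO over WT cerebellum, of the 668 tested miRNAs against their mean level in CPM over the 6 libraries (log axis). The 6 called miRNAs, in red, lie from 0.88 to 5.56, and the 662 others, in grey, spread more widely toward low levels and lie between −1.46 and 0.77.

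miRNA groups of the cerebellum and of other cell types were counted by the same test, and apart from the groups already described 0 members rose or fell in edgeR. Among miRNAs reported elsewhere to undergo target-directed degradation 0 of 6 were called, with miR-29b-3p at −0.09 (SE 0.08) and miR-221-3p and miR-222-3p at −0.11 and −0.10 on the log2 scale. Of the 12 neuronal miRNAs 0 were called and 9 were negative, with a median of −0.08. Over all 668 tested miRNAs 0.898% were called and 366 were negative, with a median of −0.01. Among them miR-9-5p stood at −0.07 and miR-128-3p at 0.02. The 5 activity-regulated miRNAs, which neuronal firing induces, had a median of 0.11. miR-132-3p had 2732, 2949 and 3214 CPM in WT and 3688, 2952 and 3501 CPM in CyrKO, so that its groups overlapped. Of the 20 tested strands of the neighbouring cluster of miR-127 and miR-433 0 were called, with miR-127-3p at −0.10 and miR-434-3p at 0.12, and 1 of them, miR-431-5p, had an unadjusted p under 0.05.

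Large miRNA families lay near the median of all miRNAs (−0.01). The 9 let-7 strands had a median log2 change of −0.05, 7 of miR-29 had −0.08, 9 of miR-30 had −0.04, 8 of miR-181 had −0.05 and 17 of miR-17~92 and its relatives had −0.01. The 35 tested strands of the Sfmbt2 cluster, a rodent-specific group, had a median of −0.05. None of these families had a called member, beside 0.898% called over all tested miRNAs, and the Sfmbt2 cluster held miR-466i-3p.

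Markers of other cells were compared by their summed level. Oligodendrocyte miRNAs (5 tested, among them miR-219a-5p and miR-338-3p) summed to 8646 to 11331 CPM in WT and 7052 to 10575 CPM in CyrKO. Those of immune cells (5 tested, among them miR-150-5p) summed to 2274 to 2622 and 2109 to 2788 CPM, and those of vessels (6 tested, among them miR-126a-3p) to 8142 to 8889 and 7867 to 8002 CPM. Divided by the TMM factors the vessel sums were 8478, 8780 and 8127 CPM in WT and 7915, 8146 and 7780 CPM in CyrKO, so that the groups overlapped. Of the 6 vessel miRNAs 0 were called, beside 0.898% of all tested miRNAs, and their median log2 change was −0.06. Choroid plexus miRNAs (9 tested, among them miR-204-5p) summed to 8722 to 10272 and 8644 to 10663 CPM. Most of that sum was miR-204-5p, which averaged 8790 CPM in WT and 8858 CPM in CyrKO. The 9 had a median log2 change of −0.21, with 6 negative. The oligodendrocyte miRNAs had a median of −0.17, with 4 of 5 negative, and those of immune cells 0.004, with 2 of 5 negative. Over all 668 tested miRNAs the median was −0.01 and 366 were negative.

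Red blood cell miRNAs were the most uneven. The 3 erythroid miRNAs, miR-451a, miR-144-3p and miR-144-5p, summed to 13913, 6326 and 32949 CPM in WT and 25051, 27991 and 16566 CPM in CyrKO. The spread within WT was larger than the difference between the groups, and miR-451a had a log2 change of 0.41 (SE 0.70). With the mean of these miRNAs as a covariate the count of called miRNAs was again 6. The miR-200 (epithelial), endocrine (miR-375-3p) and Hox-cluster markers were scarce, at sums of at most 13, 15.5 and 36.1 CPM in any of the 6 libraries.

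The same loss could be read in other cerebellum libraries by setting the double mutant against Cdr1as671, a pair that shares no library with the main comparison. There 5 of 688 miRNAs (0.727%) were called higher and 0 lower by edgeR. miR-7a-5p had 545, 543 and 683 CPM in Cdr1as671 and 33323, 36859 and 41716 CPM in the double mutant, a log2 change of 6.08 (SE 0.15). miR-7b-5p changed by 6.28 (SE 0.15). miR-409-3p rose by 1.54 (SE 0.11), miR-411-3p by 0.85 (SE 0.09) and miR-379-3p by 0.65 (SE 0.10), so the 5 called were 5 of the 6 called strands of CyrKO cerebellum. The miR-7 passengers were not called. miR-7a-1-3p was at −0.34 (SE 0.10, adjusted p = 0.354 by edgeR), miR-7b-3p at −0.77 (SE 0.28, adjusted p = 0.545) and miR-7a-2-3p at 0.22 (SE 0.18). Without Cdr1as671 library 3 the count was 59, of which 53 were higher. That library had 13692 CPM of the red blood cell miRNA miR-451a, against 708 and 549 CPM in the other Cdr1as671 libraries, and the part of this difference in the count was not tested.

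miR-671-5p was the strand that did not repeat. It had 233, 201 and 223 CPM in Cdr1as671 and 220, 232 and 231 CPM in the double mutant, a log2 change of 0.16 (SE 0.10, adjusted p = 0.647). The level in Cdr1as671 mice was already near that of CyrKO cerebellum, at 219 ± 16.7 and 225 ± 14.1 CPM (SD, n = 3 each), and above the 122 ± 9.55 CPM of WT. The difference between the effects of losing Cyrano with and without the Cdr1as deletion was −0.75 (SE 0.14, adjusted p = 0.0430), the only one of 688 (0.145%) past the threshold in edgeR. That call was lost with a replicate block (adjusted p = 0.101) and without any 1 of 10 of the 12 libraries, at −0.65 to −0.75, and was kept without Cdr1as671 library 2 or 3. For miR-7a-5p the effects differed by 0.73 (SE 0.17) and for miR-7b-5p by 0.70 (SE 0.17), both with an adjusted p of 0.168, and both were called in DESeq2 (adjusted p = 0.0288 and 0.0299), with no filter (0.00494) and without Cdr1as671 library 3.

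**Figure D5:**
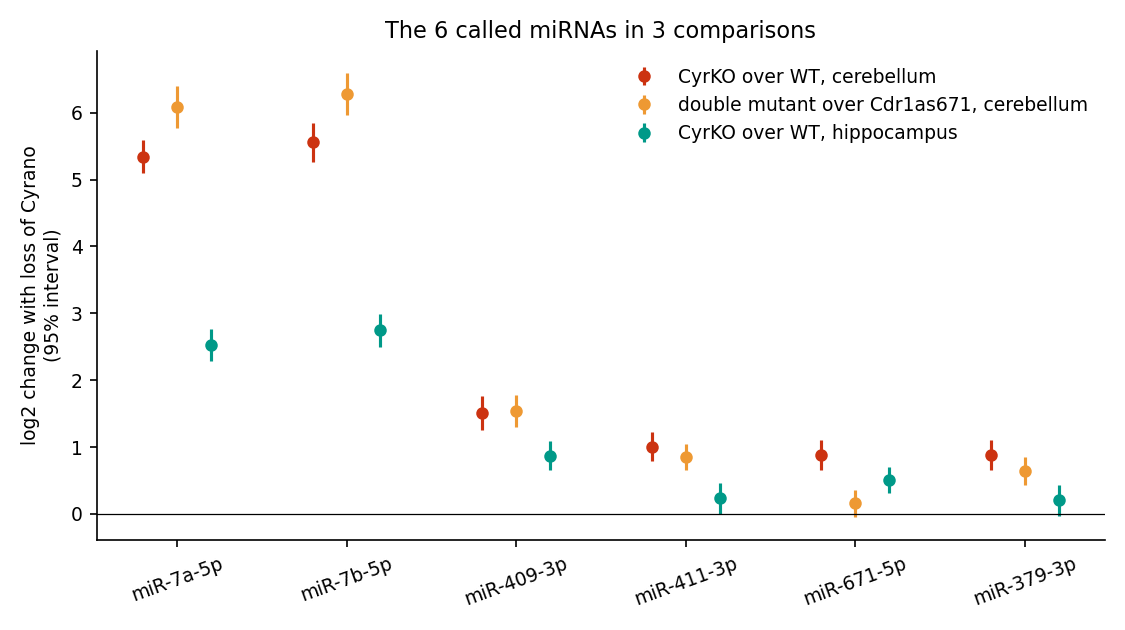
Log2 change with loss of Cyrano and its 95% interval for the 6 called miRNAs in 3 comparisons, CyrKO over WT cerebellum (red), double mutant over Cdr1as671 cerebellum (orange) and CyrKO over WT hippocampus (green). The miR-7 guides stand highest in each comparison, from 2.52 in hippocampus to 6.28 in the double mutant, and miR-671-5p is near 0 only in the double mutant, at 0.16.

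In hippocampus the guides started from a higher level. miR-7a-5p averaged 4314 ± 491 CPM in WT hippocampus against 496 ± 52.9 CPM in WT cerebellum, and 25224 ± 891 against 20026 ± 838 CPM without Cyrano. The passenger miR-7a-1-3p had a log2 change of −0.30 (SE 0.11, adjusted p = 0.979 by edgeR) in hippocampus. There miR-7a-2-3p was at −0.09 (SE 0.13) and miR-7b-3p at −0.07 (SE 0.21). A contrast of the effects over 12 libraries called 3 of 746 miRNAs (0.402%), all with a smaller log2 change in hippocampus. That contrast compares ratios and does not compare the gain in CPM. For miR-7a-5p the difference, hippocampus minus cerebellum, was −2.82 (SE 0.15), and for miR-7b-5p it was −2.81 (SE 0.16), each with an adjusted p of 3.17e-09 in edgeR. For miR-411-3p it was −0.77 (SE 0.16, adjusted p = 0.0387), a call lost with a replicate block (0.0959) and without CyrKO hippocampus library 2 (0.111). miR-379-3p at −0.67 and miR-409-3p at −0.64 did not pass (adjusted p = 0.0830 and 0.0785), although DESeq2 called both (0.0105 and 0.0135), and miR-671-5p was at −0.37 (adjusted p = 0.765). Within hippocampus miR-409-3p rose by 0.87 (SE 0.10, adjusted p = 5.84e-05 by edgeR) and miR-671-5p by 0.51 (SE 0.09, adjusted p = 0.00769). miR-411-3p at 0.23 (SE 0.11) and miR-379-3p at 0.21 (SE 0.11) were not called there (adjusted p = 0.979 for each by edgeR).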

How the data were processed

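Per the labels' protocols, libraries were made from 5 ug of Trizol-extracted total RNA, with RNAs of 18 to 32 nt selected. The submitters' processing notes name cutadapt and DESeq2 1.10. The aligner, annotation and genome build behind the counts were not given in the sources used here. In all, the authors deposited 4 tables of 1841 miRNAs with raw counts per library. The second set of columns, marked as normalised per the file headers, is the count divided by a factor per library and was read as signal. The authors' log2 fold changes and standard errors, per the file headers, compare the mutant with WT. Their Wald statistic was read as a score per the file headers and not used. The authors' p-value columns, raw and adjusted per the file headers, served as an alternative source of calls.

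The tests ran on the deposited counts in edgeR 4.0.16 under R 4.3.3 (filterByExpr with minimum count 10 and minimum total 15, TMM scaling, robust quasi-likelihood F-test, Benjamini-Hochberg threshold 0.05). A standard error is the log2 change over the square root of F, and 95% intervals use the moderated degrees of freedom. CyrKO and WT cerebellum were compared in a fit of their 6 libraries alone. The double mutant, its interaction and the tissue difference were contrasts in fits of 12 libraries. Strand ratios, log2 with 0.5 added to each count, were compared in limma 3.58.1, and DESeq2 1.42.0 was an alternative. Intervals cover the spread between libraries.

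The text names every strand of miR-7 and miR-671, every called miRNA and its other strand, the 10 rest with the lowest p in each direction, cluster neighbours by level, up to 4 members per list and the 10 most abundant miRNAs. The members, lists and alternatives were chosen with earlier results of these data known. Some members of the lists, such as let-7a-5p, were not analysed here. Alternatives covered scaling, filters, tests, a replicate block, an erythroid covariate and each library left out.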

Additional observations from a re-analysis of the deposited data

Results flagged for a closer look

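The log2 change of the miR-7 guides without Cyrano differed between tissues by the contrast of the effects in edgeR. Hippocampus minus cerebellum, the log2 changes differed by −2.82 in miR-7a-5p and −2.81 in miR-7b-5p (adjusted p = 3.17e-09 for each). Both differences had the same sign and passed the threshold under each of the 16 alternatives run for them, between −2.92 and −2.72 for miR-7a-5p. For miR-411-3p the difference was −0.77 (adjusted p = 0.0387), with adjusted p from 0.000650 to 0.111 over its alternatives. The effect on miR-671-5p differed between mice with and without the Cdr1as deletion by −0.75 (adjusted p = 0.0430), with adjusted p from 0.000446 to 0.301 over its alternatives.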

How the results depend on the processing

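The count of called miRNAs was 6 or 7 under all 17 alternatives, and each of the 6 called strands kept its call in every one. The replicate block gave 7 calls (6 higher, 1 lower, miR-374c-5p). miR-374c-5p was also called lower in edgeR with no filter (adjusted p = 0.00129) and in the fit of 12 cerebellum libraries (0.0490). The count was therefore 7 there too. Deviations of libraries with the same number correlated at 0.467, 0.324 and 0.066 over 408 miRNAs, and 3 of 6 libraries correlated best with their own number, so the numbers were not taken as pairs. For the double mutant against Cdr1as671 the count without 1 library ranged from 5 to 59, the latter without Cdr1as671 library 3. The interaction count was 4 with no filter, 4 in DESeq2 and 0 with the replicate block, and ranged from 0 to 19 without 1 library, again highest without Cdr1as671 library 3. The tissue difference called 5 in DESeq2. For each the cause was not tested.

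The signs of some uncalled strands turned. miR-7a-1-3p was at 0.014 with DESeq2 size factors, 0.012 without the 10 most abundant miRNAs, 0.014 in DESeq2, 0.011 in the authors' deposited table, 0.014 in the fit of 12 libraries, 0.020 with no filter and 0.022 with a minimum of 10 CPM. miR-379-5p was at 0.0070, 0.0027, 0.0070, 0.0055, 0.0050, 0.013 and 0.012 under the same settings in that order, and at 0.031 with the erythroid covariate. With that covariate miR-7a-2-3p was at −0.036 and miR-409-5p at −0.026. Leaving out 1 library gave −0.10 to 0.070 for miR-7a-1-3p, −0.066 to 0.21 for miR-7a-2-3p, −0.33 to 0.34 for miR-7b-3p, −0.089 to 0.10 for miR-409-5p, −0.13 to 0.038 for miR-411-5p, −0.11 to 0.10 for miR-379-5p, −0.10 to 0.057 for miR-300-3p and −0.0030 to 0.14 for the interaction of miR-409-3p. The 95% interval lay within 1.5-fold for 60 of 260 miRNAs below 10 CPM (23.1%), against 75 of 80 at 1000 CPM and more.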

Other observations

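Some uncalled strands with negative changes were high in a single library of each group. miR-1298-5p, whose hairpin lies in the serotonin receptor gene Htr2c like those of miR-448 and miR-1264, had 205, 3.69 and 2.69 CPM in the WT libraries and 69.2, 4.64 and 5.00 CPM in the CyrKO libraries. miR-448-3p had 24.1, 0.74 and 1.09 CPM in WT and 8.64, 1.11 and 1.25 CPM in CyrKO. miR-1264-3p had 34.9, 2.46 and 2.29 CPM in WT and 16.1, 3.53 and 3.75 CPM in CyrKO. Library 1 of each group was the high one for all 3, and their log2 changes of −1.46 (SE 2.22), −1.31 (SE 1.74) and −0.80 (SE 1.45) did not pass the test. The ciliated-cell miRNA miR-34c-5p was highest in the same libraries, with 393, 179 and 209 CPM in WT and 252, 143 and 204 CPM in CyrKO. These strands were chosen after their values were seen.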
